A study of Mus musculus with 2 samples.

Results

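The genes described here are PU.1 and 9 further genes of the ETS family of transcription factors, which were chosen by name as the rows of the DNase I hypersensitivity table that list Sfpi1 (the gene of PU.1), Spib, Ets1, Ets2, Fli1, Erg, Elf1, Elf4, Etv6 or Gabpa. All 10 were found, with 35 listed transcripts, among 22605 genes of the table. M1 is a murine line of leukemic myeloid progenitors, with bone marrow as its labelled source, that matures toward macrophages in IL-6. The table covers 2 libraries, 1 from untreated M1 cells and 1 from cells given IL-6 (4 to 5 days in the labels, with no day stated for this assay), both at passages 15 to 18. As each condition has a single library, differences lack a replicate check, no test across libraries was made, and all intervals are exact 95% intervals that cover counting error only. DHS-seq sequences the short DNA fragments that limited DNase I digestion of nuclei releases, mainly from open chromatin. The signal is given as reads per window of 700 bp over the coding span (start to stop codon) of each transcript, so levels can be compared between genes of different length. Reads of the IL-6 library had been multiplied by 1.038 in the deposited values, and this scaling was kept.

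ETS factors share a DNA-binding domain, the ETS domain, that contacts a GGAA core in DNA, and members differ mainly in the bases they prefer around this core and in their partner proteins. PU.1 drives the macrophage and granulocyte lineages and activates genes of the receptors of myeloid growth factors. Spi-B is its closest relative and is best known from B cells and plasmacytoid dendritic cells. FLI1, ERG, ETS1 and ETV6 are factors of stem cells, progenitors, endothelium and lymphoid cells, while ELF1, ELF4, ETS2 and GABPA are used in many cell types. DNase I signal over a coding span is no measure of the expression of the gene.

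In untreated M1 cells the mean signal of the 10 genes ranged from 38.9 reads per window at Spib to 5.03 at Gabpa, against a median of 9.33 over the 18472 genes tested, those with over 21 reads in at least 1 library. After IL-6 the range narrowed to between 17.8 reads per window at Spib and 5.32 at Gabpa. With the deposited scaling 3 genes were at least 1.5-fold lower after IL-6 (Sfpi1, Spib and Fli1), against 23.2% of all genes tested, and 1 was at least 1.5-fold higher (Ets1), against 10.8%. At the 2-fold limit 2 genes were lower (Sfpi1 and Spib), against 13.4% of all genes, and 0 were higher, against 1.71%. The interval of the ratio lay below 1 at 6 genes, against 34.4% of all genes, and above 1 at 2 genes, against 29.0%. The median log2 ratio was -0.29 for the 10 genes and 0.03 for all genes tested. By either fold limit the counts are near the shares of all genes and are no result about the family. Directions hold for the scaling of the table, for no scaling and for totals over coding spans. Scaling on single windows with many reads in both libraries instead adds 1.83 to every log2 ratio, and all 10 genes are then higher after IL-6. So are most genes, as 19109 of 20848 genes tested are then at least 1.5-fold higher. Differences between genes do not depend on a common factor.

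**Figure D1:**
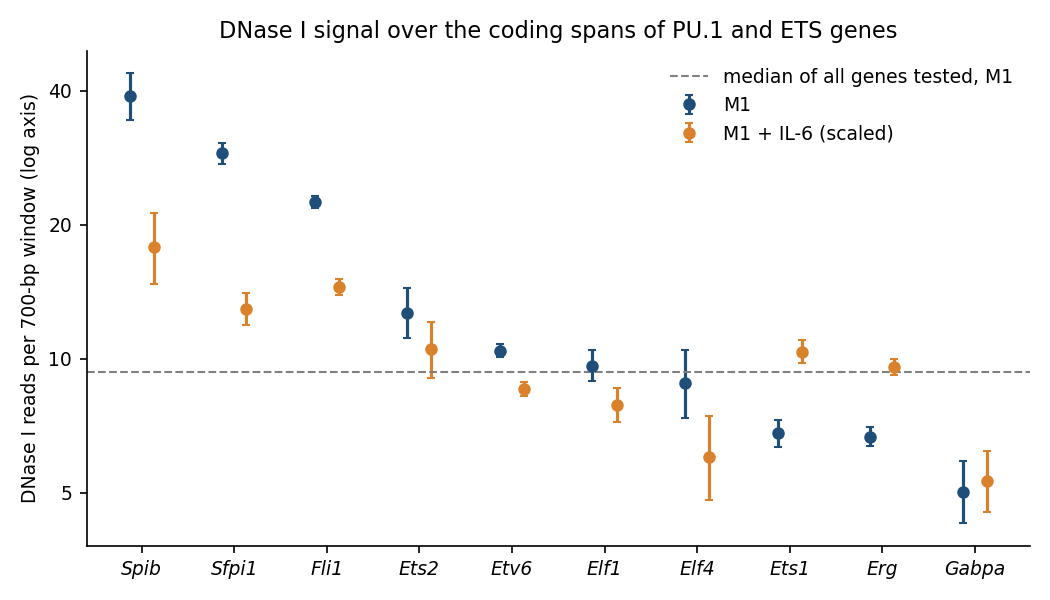
DNase I reads per 700-bp window (log axis) over the coding span of each gene in untreated M1 cells and, after scaling, in IL-6-treated cells. Bars are exact 95% Poisson intervals of the mean and cover counting error only. The dashed line is the median of 18472 genes in untreated cells (9.33). Spib, Sfpi1 and Fli1 stand highest in both libraries. With this scaling Ets1 and Erg cross from below the line to above it and Etv6 and Elf1 from above to below. Under the scaling on strong single windows all 10 genes are higher after IL-6, and 19109 of 20848 genes tested are then at least 1.5-fold higher.

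The sequences shown here lie wholly or partly in stretches with a recovered signal. The first is the coding part of the last exon of Spib, which lies in the single window with the most reads that could be isolated at any of the 10 genes. The other sequences are the 250 bases before a transcription start that falls in the windows of Spib, Etv6 or Erg. The Etv6 promoter begins upstream of the windows of its gene, which start at 133985601, so only part of it has a recovered signal. Capitals mark GGAA or its complement TTCC. The exon was read from NCBIM37 at chr7:51783329-51783627 on the minus strand. The promoter sequences are from RefSeq (GRCm38.p6) and match NCBIM37 at 1 place each, at chr7:51787442-51787691 (minus strand, Spib), chr6:133985468-133985717 (plus strand, Etv6) and chr16:95680956-95681205 (minus strand, Erg). The promoter table held 11 entries for 7 of the genes and none for Sfpi1, Ets1 or Fli1.
Spib last exon: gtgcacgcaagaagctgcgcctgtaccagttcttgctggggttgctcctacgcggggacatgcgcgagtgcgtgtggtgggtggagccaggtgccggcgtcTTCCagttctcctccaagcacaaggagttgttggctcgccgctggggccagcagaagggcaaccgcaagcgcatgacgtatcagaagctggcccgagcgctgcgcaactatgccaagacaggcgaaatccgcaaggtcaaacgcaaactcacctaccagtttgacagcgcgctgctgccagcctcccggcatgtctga
Spib promoter: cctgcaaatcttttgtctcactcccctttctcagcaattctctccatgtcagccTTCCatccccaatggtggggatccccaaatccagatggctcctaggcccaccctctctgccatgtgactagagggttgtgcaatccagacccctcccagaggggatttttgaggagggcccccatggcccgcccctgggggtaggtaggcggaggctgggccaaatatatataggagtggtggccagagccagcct
Etv6 promoter: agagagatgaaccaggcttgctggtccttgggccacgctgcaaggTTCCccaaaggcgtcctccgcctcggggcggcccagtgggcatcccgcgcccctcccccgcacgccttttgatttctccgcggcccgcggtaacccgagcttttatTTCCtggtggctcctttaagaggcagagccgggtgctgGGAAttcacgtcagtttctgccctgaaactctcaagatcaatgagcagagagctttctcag
Erg promoter: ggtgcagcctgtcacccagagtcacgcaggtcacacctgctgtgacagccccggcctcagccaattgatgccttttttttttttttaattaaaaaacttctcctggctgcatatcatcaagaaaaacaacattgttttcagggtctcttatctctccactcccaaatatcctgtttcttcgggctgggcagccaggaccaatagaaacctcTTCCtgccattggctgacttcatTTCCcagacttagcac

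The core occurs once in the Spib promoter, 3 times in the Etv6 promoter and 2 times in the Erg promoter, counted on both strands. It is found in 93.4% of 32851 RefSeq promoters of this length, with a median of 3 per promoter, so its presence is common. The longer letters GAGGAA and CCGGAAGT, which contain the core and were also searched on both strands, occur in 23.3% and 2.88% of all promoters and in none of these 3. The Spib promoter holds 2 CpG, against 23 in the 299 bases of the last exon and a median of 6 over all promoters.

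Sfpi1 encodes PU.1, the master factor of the myeloid lineages. The gene (ENSMUSG00000002111) occupies 90922547 to 90955913 of chromosome 2 in NCBIM37, plus strand, and its longest listed span, that of Sfpi1-003, covers 47 windows. These windows held 1360 reads in M1 cells, a mean of 28.9 per window (SD between windows 53.7), at the 88.7 percentile of all genes tested. After IL-6 they held 586 reads, a scaled mean of 12.9 per window (SD 10.95). The ratio was 0.447 (95% interval 0.405 to 0.493), a log2 ratio of -1.16, at the 10.5 percentile of all genes tested. When genes were ranked by their summed signal per window and divided into deciles, those in the decile of Sfpi1 had a median log2 ratio of -0.52, and Sfpi1 was at the 18.7 percentile among them.

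The 3 listed Sfpi1 transcripts divide the gene. The 24 windows from 90937001 to 90953800, the span of Sfpi1-002, went from 510 to 252 reads, a ratio of 0.513 (0.439 to 0.598). The 3 windows after them held 100 reads in M1 cells and 47 after IL-6. Their mean and SD allow only 1 set of whole numbers in each library, namely 31, 33 and 36 reads in M1 cells and 11, 14 and 22 reads in IL-6-treated cells, in an order that is not known. The highest of these windows after IL-6 thus had fewer reads than the lowest before it.

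With these values the 21 windows upstream, from 90922301 to 90937000, could be bounded. They hold the annotated starts of Sfpi1-003 at 90922547, of Sfpi1-001 at 90936253 and of Sfpi1-002 at 90936937. The first of these lies 13.7 kb upstream of the second, and an upstream regulatory element of PU.1 is known far from its promoter, although its position was not matched to these windows. The 21 windows held 781 to 786 reads in M1 cells, a mean of 37.2 to 37.4 per window, and 298 to 309 reads after IL-6, a scaled mean of 14.7 to 15.3. The ratio was between 0.394 and 0.411, with counting error between 0.343 and 0.469. The strongest of the 21 windows had at least 188 and at most 372 reads in M1 cells, and between 29.1 and 78.9 scaled reads after IL-6. No window of the 24 downstream had more than 127 reads in M1 cells, so the strongest window of the Sfpi1 span lay upstream of position 90937001 in that library. With the deposited scaling the upstream stretch, the body and the 3′ end were all lower after IL-6. The intervals of their ratios overlap, which does not show that the ratios are equal, and a difference between them was not tested.

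Spib (ENSMUSG00000008193), on the minus strand of chromosome 7 between 51781365 and 51787441, had the highest mean of the 10 genes. Its 7 windows held 272 reads in M1 cells, 38.9 per window (SD 60.9), and 120 reads after IL-6, 17.8 per window after scaling (SD 13.2). The ratio was 0.458 (0.366 to 0.570), a log2 ratio of -1.12. Genes in the same signal decile, the highest, had a lower median of -1.43, and Spib was at the 68.0 percentile among them. Most of the difference came from 1 window. The coding sequence of a shorter transcript stops before the last exon, and the window from 51783201 to 51783900 that separates the spans held 176 reads in M1 cells and 44 after IL-6, which is 45.7 after scaling. Its ratio was 0.260 (0.182 to 0.363). The other 6 windows, which include the transcription start, held 96 and 76 reads, a ratio of 0.822 (0.600 to 1.12), so the intervals of these parts do not overlap. The window holds the coding part of the last exon printed above, part of the 3′ UTR and the end of the intron before it. It has 32 CpG and a GC content of 57.1%, against a median of 8.89 CpG per window and 46.3% over the spans of all genes tested.

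**Figure D2:**
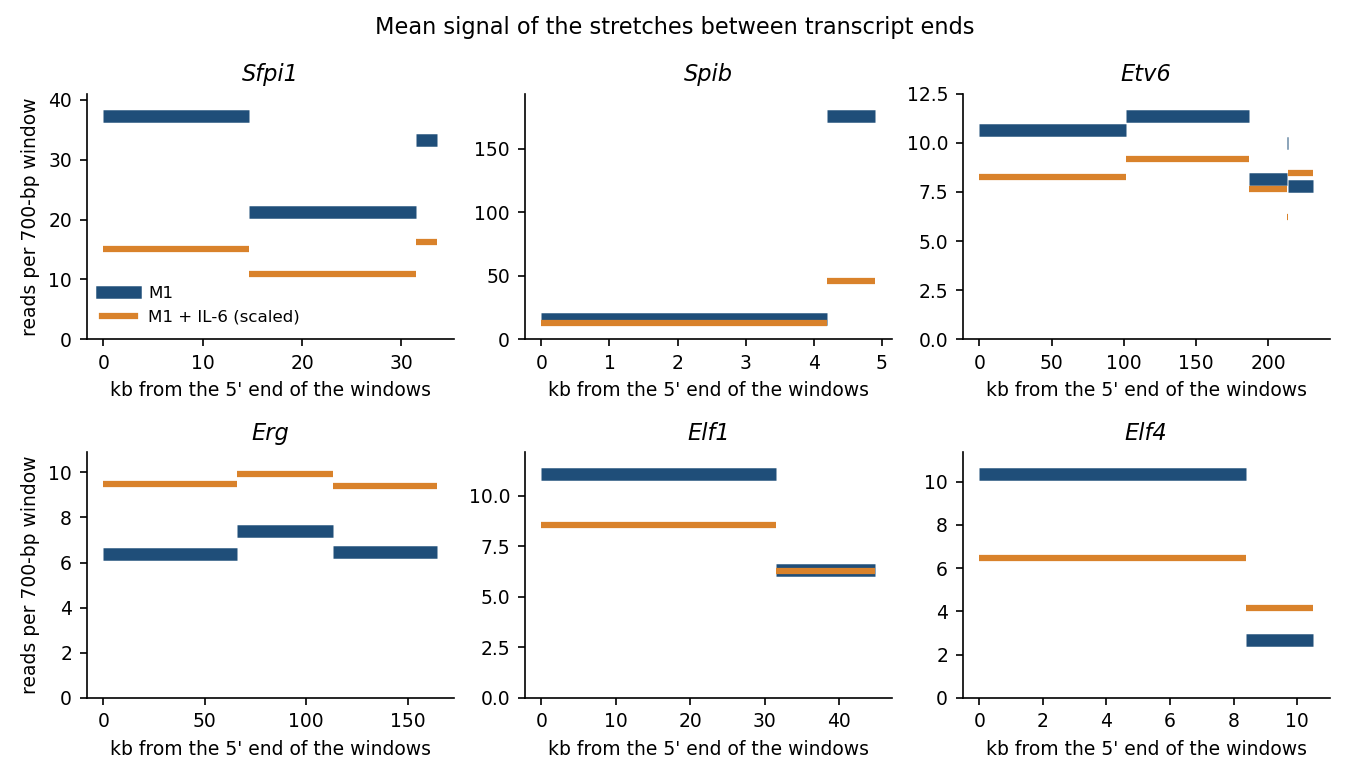
Mean DNase I reads per 700-bp window in the stretches that the ends of listed transcripts isolate at 6 genes, drawn 5′ to 3′ along each gene in kb, for untreated M1 cells (wide lines) and IL-6-treated cells after scaling (narrow lines). The upstream stretch of Sfpi1 is drawn at the middle of its bounds. With the deposited scaling the 3′ window of Spib has the lowest ratio, with 176 and 45.7 reads, and all 3 stretches of Erg are higher after IL-6, while under the scaling on strong single windows only this Spib window is lower.

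Fli1 (ENSMUSG00000016087) encodes a factor of hematopoietic progenitors, megakaryocytes and endothelium and occupies 32229793 to 32348974 of chromosome 9, minus strand. Its single listed transcript covers 169 windows, including the transcription start. These held 3801 reads in M1 cells, the most of the 10 genes, which is 22.5 per window (SD 40.4), and 2357 after IL-6, 14.5 per window after scaling (SD 11.2). The ratio was 0.644 (0.611 to 0.678), and its log2 value of -0.64 lies near the median of its signal decile, -0.52. At least 1 window had 95 reads or more in M1 cells.

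Ets1 (ENSMUSG00000032035) lies 94.8 kb from Fli1 on the same chromosome, on the plus strand, from 32443806 to 32565405, and encodes a factor best known from lymphoid cells. It was the gene with the highest ratio. Its longest span, of 114 windows, held 776 reads in M1 cells, 6.81 per window (SD 4.90), and 1140 after IL-6, 10.4 per window after scaling (SD 5.85). The ratio was 1.53 (1.39 to 1.67), a log2 ratio of 0.61, at the 90.4 percentile of all genes and at the 89.4 percentile of its signal decile. A second span of 84 windows, 47 of them shared with the first, went from 645 to 1019 reads, a ratio of 1.64 (1.48 to 1.81). Without the scaling factor the log2 ratio was 0.55, under the 1.5-fold limit. The log2 ratio of Ets1 exceeded that of its neighbor Fli1 by 1.24.

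Erg (ENSMUSG00000040732), the closest relative of Fli1 and a factor of stem cells and endothelium, occupies 95580776 to 95808200 of chromosome 16, minus strand. Its 235 windows held 1572 reads in M1 cells, 6.69 per window (SD 5.77), and 2170 after IL-6, 9.59 per window after scaling (SD 7.89). The ratio was 1.43 (1.34 to 1.53), a log2 ratio of 0.52. The transcripts of Erg give 3 stretches, and all were higher after IL-6 with the deposited scaling. The 94 windows at the 5′ end held 599 and then 860 reads, which is 1.49-fold (1.34 to 1.66), the 68 in the middle from 502 to 649, 1.34 (1.19 to 1.51), and the 73 at the 3′ end from 471 to 661, 1.46 (1.29 to 1.64). These intervals overlap, and a difference between the stretches was not tested. The printed Erg promoter lies at the inner end of the first stretch.

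Ets2 (ENSMUSG00000022895), a widely used target of MAP kinase signaling, lies 115 kb from Erg on the plus strand, from 95923682 to 95942658. Its 19 windows held 241 reads in M1 cells, 12.7 per window (SD 16.3), and 192 after IL-6, 10.5 per window after scaling (SD 8.22). The ratio of 0.827 had an interval of 0.681 to 1.00 that includes 1. The 14 windows at the 5′ end had a ratio of 0.783 (0.629 to 0.972), and the 5 at the 3′ end held 42 reads in each library, a ratio of 1.04 (0.661 to 1.63). In both pairs of neighbors, Fli1 with Ets1 and Erg with Ets2, the intervals of the ratios did not overlap.

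Elf1 (ENSMUSG00000036461) and Elf4 (ENSMUSG00000031103) encode related activators of blood cell genes. Elf1 occupies 79881001 to 79982283 of chromosome 14, plus strand, and Elf4 45764223 to 45816309 of chromosome X, minus strand. The 64 windows of Elf1 held 618 reads in M1 cells, 9.66 per window (SD 12.1), and 486 after IL-6, 7.88 after scaling (SD 5.96), a ratio of 0.816 (0.723 to 0.921). The 45 windows at its 5′ end had a ratio of 0.773 (0.674 to 0.886), while the 19 at its 3′ end went from 120 to 115 reads, 0.995 (0.764 to 1.30). The 15 windows of Elf4 held 132 reads in M1 cells, 8.80 per window (SD 13.9), and 87 after IL-6, 6.02 after scaling (SD 7.84), a ratio of 0.684 (0.516 to 0.904). Of these, the 12 at the 5′ end of the coding span went from 124 to 75 reads, a ratio of 0.628 (0.465 to 0.843). The 3 windows at the 3′ end of Elf4 held 8 reads in M1 cells, which can only be 2, 2 and 4, and 12 after IL-6. Elf4 had the log2 ratio furthest below the median of its signal decile, -0.54 against 0.17, at the 10.5 percentile of that decile.

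Etv6 (ENSMUSG00000030199) encodes TEL, an ETS repressor that stem cells need and that translocations often hit in leukemia, and occupies 133985718 to 134220176 of chromosome 6, plus strand. Its 330 windows, the most of the 10 genes, held 3436 reads in M1 cells, 10.4 per window (SD 10.99), and 2717 after IL-6, 8.55 after scaling (SD 5.08). The ratio was 0.821 (0.780 to 0.864). Its transcripts divide it into 5 stretches. At the 5′ end, 145 windows held 1542 and then 1154 reads, with a ratio of 0.777 (0.719 to 0.839), and 122 windows from 1387 to 1081, 0.809 (0.747 to 0.877). The next 37 windows went from 302 to 272 reads, 0.935 (0.791 to 1.11). A single window from 134198401 to 134199100 held 10 and 6 reads, and the last 25 windows went from 195 to 204, a ratio of 1.09 (0.888 to 1.33). The first stretch, which begins in the promoter printed above, and the last have intervals that do not overlap.

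Gabpa (ENSMUSG00000008976) encodes the DNA-binding subunit of GABP, a factor of housekeeping and mitochondrial genes that acts with a GABPB subunit, and occupies 84835170 to 84864024 of chromosome 16, plus strand. It had the lowest mean in both libraries. Its 31 windows held 156 reads in M1 cells, 5.03 per window (SD 3.50), and 159 after IL-6, 5.32 after scaling (SD 4.55). The ratio was 1.06 (0.843 to 1.33). The 17 inner windows went from 95 to 94 reads and the 14 at its ends from 61 to 65, with ratios of 1.03 and 1.11 whose intervals include 1. Its windows had a GC content of 39.3%, the lowest of the 10 genes, and its transcription starts lie outside them.

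**Figure D3:**
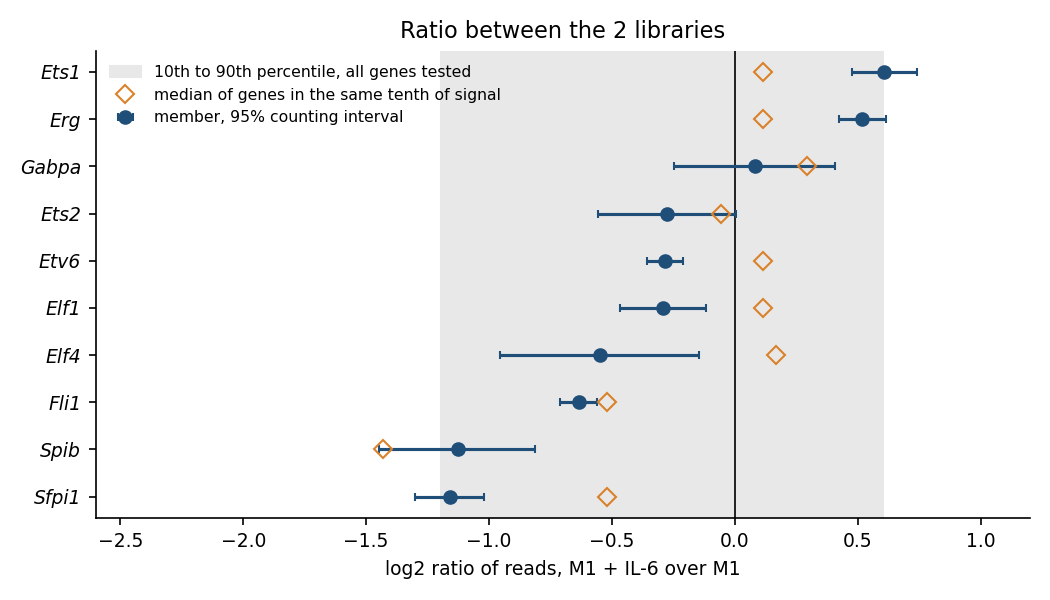
Log2 ratio of scaled reads in IL-6-treated over untreated M1 cells for the 10 genes, with exact 95% counting intervals. The band spans the 10th to 90th percentile of all genes tested (-1.20 to 0.60), and diamonds mark the median of genes in the same signal decile. With the deposited scaling Sfpi1 lies at -1.16 and Ets1 at 0.61, while under the scaling on strong single windows all points move by 1.83 to the right of 0. Under that scaling 19109 of 20848 genes tested are at least 1.5-fold higher.

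In untreated M1 cells the order by level was Spib, Sfpi1, Fli1, Ets2, Etv6, Elf1, Elf4, Ets1, Erg and Gabpa. Neighbors in this order differed beyond counting error except Etv6 and Elf1 (10.4 and 9.66 reads per window), Elf1 and Elf4 (9.66 and 8.80), and Ets1 and Erg (6.81 and 6.69). After IL-6 the order of scaled levels was Spib, Fli1, Sfpi1, Ets2, Ets1, Erg, Etv6, Elf1, Elf4 and Gabpa. There Ets2 and Ets1, Etv6 and Elf1, and Elf4 and Gabpa did not differ beyond counting error. The highest level was 7.72 times the lowest in untreated cells and 3.34 times the lowest after IL-6. When the transcript with the fewest windows stood for each gene, 5 of the 10 genes kept their place in the M1 order and Fli1 led it, and the shortest Spib span, which lacks the strong window, ranked below Fli1 and Sfpi1.

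Whether a span reached a promoter differed among the genes. The windows of Sfpi1, Spib, Ets1, Fli1, Erg and Etv6 held at least 1 annotated start of their own listed transcripts, and those of Ets2, Elf1, Elf4 and Gabpa held none. Over all genes tested, the 12997 whose windows hold a start of their own had a median log2 ratio of -0.05 and the 5475 without one 0.15. In untreated cells these groups had medians of 9.93 and 8.26 reads per window. Among the genes with a start were the 3 highest levels in M1 cells (Spib, Sfpi1 and Fli1) and also Ets1 and Erg, which were among the lowest.

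The signal was uneven along most of the spans in untreated cells and less so after IL-6. In M1 cells the SD between windows divided by their mean was 1.86 at Sfpi1, 1.79 at Fli1, 1.58 at Elf4 and 1.57 at Spib. After IL-6 it was 0.846, 0.771, 1.30 and 0.740 at these genes. It was lowest at Gabpa (0.695) and Ets1 (0.720) in M1 cells. The ratio was smaller after IL-6 at 9 of the 10 genes, all except Gabpa, against 82.2% of all genes tested. The median over the 10 genes was 1.27 before and 0.777 after, and over all genes 0.945 and 0.700. From mean and SD, at least 1 window above 21 reads, the number above which the methods call a hypersensitive site of unstated width, had to be present at 7 of the genes in M1 cells and at 3 (Sfpi1, Spib and Fli1) after IL-6. The share of all genes tested that must hold such a window was not computed, so these counts are no result about the members. At Ets1 and Erg the values allow such a window in M1 cells but do not require it. At Gabpa they exclude it, since in M1 cells no inner window can exceed 19 reads and no outer window 15.

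**Figure D4:**
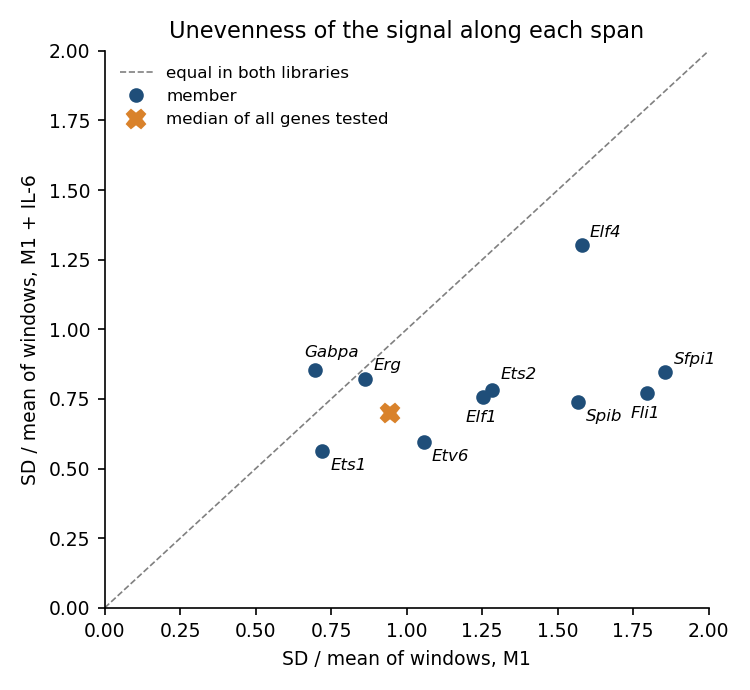
SD of reads between windows divided by their mean, for each of the 10 genes in untreated (x axis) and IL-6-treated M1 cells (y axis), both without unit. The dashed line marks equal values and the cross the median of all genes tested (0.945 and 0.700). All genes except Gabpa lie below the line, and Sfpi1, Fli1, Spib and Elf4 lie furthest right.

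The summed level of both libraries moved with the ratio over the whole table. The median log2 ratio over all genes tested was 0.43 in the lowest decile of summed signal, 0.11 in the fifth and -1.43 in the highest. Sfpi1, Spib and Fli1 were the only members in the highest 2 deciles, and they were the 3 with a ratio at least 1.5-fold lower, as were 2453 of all 3695 genes in these deciles. Ets1 and Erg were in the same decile, the fifth, as Elf1 and Etv6, whose log2 ratios were -0.29 and -0.28 against 0.61 and 0.52. The part of this trend in the ratios of the members was not tested. A difference between the conditions cannot be told apart from one between these 2 preparations.

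The 16 other ETS genes (Spic, Elk1, Elk3, Elk4, Etv1, Etv2, Etv3, Etv4, Etv5, Erf, Elf2, Elf3, Elf5, Ehf, Spdef and Fev) had a median log2 ratio of 0.18, against 0.03 for all genes tested. Of them 1 was at least 1.5-fold lower and 3 were at least 1.5-fold higher, which is 6.25% and 18.8%, against 23.2% and 10.8% of all genes. Only Erf, an ETS repressor, was at least 1.5-fold lower, with 194 and 89 reads and a log2 ratio of -1.07. Of the 3 that were at least 1.5-fold higher, Etv2, a factor of early blood and vessel formation, had the highest log2 ratio, 0.84, from 23 and 40 reads over 5 windows. The interval of its ratio was 1.06 to 3.16. Spic, a macrophage relative of PU.1, had only 18 and 27 reads, with an interval of the ratio of 0.827 to 3.002 that includes 1. Only 1 of the 16 genes was in the highest 2 signal deciles, which held 3695 of the 18472 genes tested. The log2 ratios of the 16 genes minus the medians of their deciles had a median of 0.03. The part of the trend with signal in their ratios was not tested.

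The 10 partner genes (Irf4, Irf8, Cebpa, Cebpb, Runx1, Jun, Gata1, Gata2, Gabpb1 and Gabpb2) encode factors that bind or oppose PU.1 and the other subunits of GABP. Of them 5 were at least 1.5-fold lower and 0 higher, against 23.2% and 10.8% of all genes tested, and their median log2 ratio was -0.50, against 0.03. Jun, an AP-1 factor and coactivator of PU.1, had the lowest, -2.19, from 362 and 76 reads over 3 windows. Irf4, which binds DNA with PU.1 and Spi-B in B cells, had the highest, 0.55, from 98 and 138 reads. Gabpb1 (296 and 264 reads) and Gabpb2 (307 and 326 reads) had intervals that include 1, as Gabpa did. Of the 5 lower genes 3 (Cebpa, Cebpb and Jun) were in the highest 2 signal deciles, which held 4 of the 10. Of all 3695 genes in these deciles 2453 were at least 1.5-fold lower. The part of this in the ratios of the partner genes was not tested. Gata1, also among the 5 lower genes, had only 29 and 18 reads, and the interval of its ratio includes 1.

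Of the 21 genes known as targets of PU.1 in myeloid cells (Csf1r, Csf2ra, Csf3r, Itgam, Itgb2, Cd14, Fcgr1, Cybb, Ncf1, Ncf4, Btk, Tlr4, Emr1, Msr1, Cd68, Fcer1g, Tyrobp, Lyz2, Mpo, Elane and Ctsg), 9 were at least 1.5-fold lower and 0 higher, which is 42.9% lower against 23.2% of all genes tested and 0 against 10.8% higher, and the median log2 ratio was -0.49, against 0.03. Cd68, a macrophage lysosomal protein, had the lowest, -2.31, from 387 and 75 reads over 3 windows, and Mpo, a granule enzyme of progenitors, the highest, 0.33, from 151 and 183 reads. Csf1r, the M-CSF receptor, went from 943 to 514 reads, a ratio of 0.566. All 9 of the lower genes were in the highest 2 signal deciles, which held 9 of the 21. Of all 3695 genes in these deciles 2453 were at least 1.5-fold lower, and the part of this in the ratios of the targets was not tested.

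**Figure D5:**
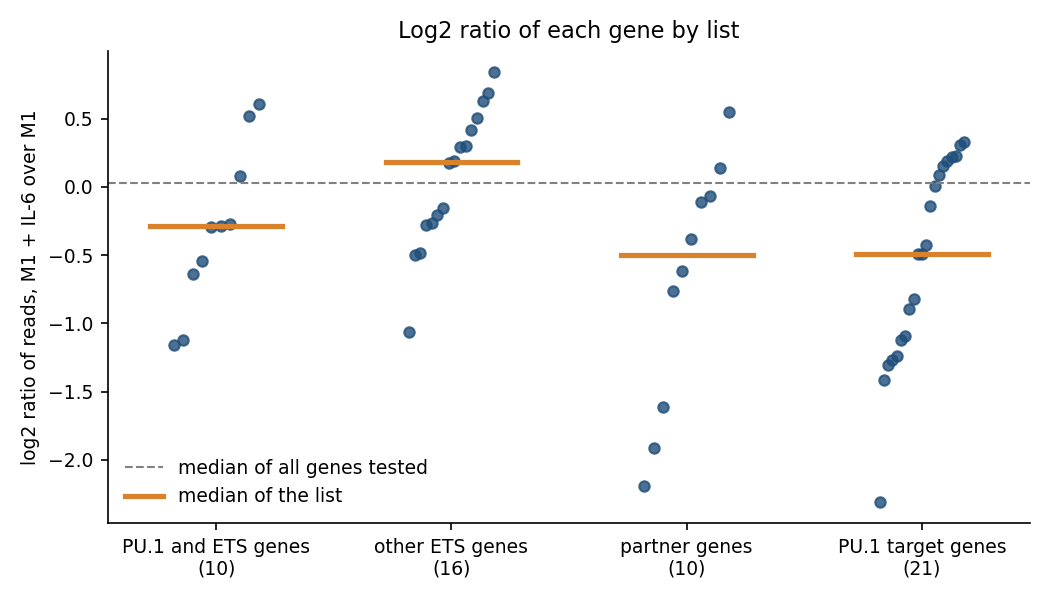
Log2 ratio of scaled reads in IL-6-treated over untreated M1 cells for each gene of 4 lists (points), with the median of each list (bars) and of all genes tested (dashed line, 0.03). With the deposited scaling the medians are -0.29, 0.18, -0.50 and -0.49 from left to right, and the scaling on strong single windows moves every point up by 1.83, which leaves 2 of the lists' lowest genes, Jun and Cd68, below 0 together with Cebpb.

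Facts of the whole table bear on these values as follows. Over coding spans picked so that none overlap, the autosomes and X carried 9102320 reads in untreated and 8544903 in treated cells, or 7.58 and 7.12 reads per window. The label of myeloid cells could not be checked with coding spans, since in M1 cells the means of 8 myeloid marker genes (2.75 to 129 reads per window) overlapped those of 6 T-cell genes (6.17 to 46.2), 5 B-cell genes (4.82 to 15.4), 5 erythroid genes (4.52 to 51.6) and 6 endothelial genes (3.15 to 13.9). None of these markers was at 0.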

How the data were processed

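DNase I hypersensitivity of M1 cells was measured in 2 libraries, 1 without and 1 with IL-6. Per the methods, adaptors and low-quality bases were trimmed and reads aligned to NCBIM37 by BWA (version not given in the sources used here). Seqmonk is named for plotting, and how the table was made is not described. The deposited signal values are the mean and SD of reads over 700-bp windows that each coding span touches, and the IL-6 column carries a scaling that the methods do not name. A column without values was not used.

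Here each mean was multiplied by the number of windows and divided by the worth of 1 read (1.0 in M1, 1.038 after IL-6), which gave whole reads within 0.05 in all 55432 rows. Sums of squares came from the SDs. Transcripts that share window boundaries were subtracted to give stretches, and sums reached by more than 1 route disagreed in 0 cases. The bounds of the strongest window follow from the sum and the sum of squares. The recovery was tested on simulated windows. The listed transcript touching the most windows stands for its gene. Ratios have Clopper-Pearson intervals, and log2 ratios add 0.5 reads. "Tested" means compared by fold and interval, over 21 reads being required in at least 1 library. No gene of the lists had 0 reads, for which up to 3 would be allowed.

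The members and lists were chosen with earlier results of these data known. Named are the 10 members, their stretches, the genes nearest to Sfpi1, and the highest and lowest gene of each list. Csf1r, Spic, Gabpb1, Gabpb2, Gata1 and Cebpb were added after their values were seen. Alternatives covered the scaling, the reads added, the transcript and the fold. Annotation was GENCODE M1 on NCBIM37. Regions outside coding spans and the other experiments of the study are not analysed here. Software comprised matplotlib 3.10.9, pysam 0.24.0, scipy 1.17.1, pandas 2.3.3, numpy 2.4.6 and Python 3.11.15.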

Additional observations from a re-analysis of the deposited data

How the results depend on the processing

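No paired analysis was possible because there is a single library of each kind and the values come from no test. For 20 results, 106 values under other settings were computed, of which 81 stayed close to the reported value, and the others moved further or changed sign. Most of those that moved or changed sign came from the scaling on the 544 single windows that reached 22 reads before and after IL-6. With it the log2 ratios of all 7 members below 0 turned positive, and those of Sfpi1, Spib, Fli1, Elf1, Elf4, Etv6 and Ets2 were 0.67, 0.70, 1.19, 1.53, 1.28, 1.54 and 1.55. The number of members at least 1.5-fold lower was then 0 and of those at least 1.5-fold higher 10. Of the 20848 genes tested under this scaling, 79 were at least 1.5-fold lower and 19109 higher, so these counts are no result about the members. Intervals of the members lay below 1 at 0 and above 1 at 10, and the shares of all genes by interval were not computed for this scaling. The median log2 ratio was 1.54 for the members, 2.01 for the other ETS genes, 1.32 for the partner genes and 1.34 for the PU.1 target genes, against 1.89 for all genes tested. With no scaling 0 members were at least 1.5-fold higher, in place of 1, and 4 were lower, in place of 3, since Elf4 at -0.60 then passed the limit. Of the 18406 genes tested without scaling, 1495 were at least 1.5-fold higher and 4584 lower. With a 2-fold limit 0 members were higher, against 1.71% of all genes tested. No scaling, totals over coding spans and the median of ratios over genes changed no direction of a member. With the transcript that has the fewest windows, 5 of 10 members kept their place in the M1 order, and the log2 ratio of Spib was -0.28. The percentile of the Sfpi1 ratio was 18.7 within its signal decile, against 10.5 over all genes. Counting error is the only error these data give, and the treatment cannot be told apart from the library.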

Other observations

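Over both libraries, the genes with levels most like those of Sfpi1 among 3846 genes with 20 to 40 windows, a range that Sfpi1-003 itself exceeds, were Dcaf7, Xrcc2 and Gusb. Likeness was the distance over the log2 reads per window in the 2 libraries. Dcaf7 had 28.2 reads per window in M1 cells and 13.1 after scaling in IL-6-treated cells. Xrcc2 had 28.1 and 12.8, and Gusb 29.4 and 12.6. The likeness is a description of these values.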
